A study of Mus musculus with 12 samples.

Results

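Hepatocyte nuclei of Cell Suspension samples, taken directly after collagenase digestion of the liver, were compared with hepatocyte nuclei of Primary Hepatocytes samples, taken after 24 hours of culture. Members were chosen from the annotation deposited by the authors: Cell Suspension nuclei annotated as Isolated Hepatocytes, and Primary Hepatocytes nuclei annotated as Cultured Cells in clusters 0, 1, 14 and 17. These were 12057 isolated and 14760 cultured nuclei, together 26817 of the 53467 annotated nuclei of the series. The other nuclei of the 18394 in Primary Hepatocytes samples were not members. The paper describes some cultured nuclei that grouped with the hepatocytes of Liver and Cell Suspension samples. The annotation was made from these same expression values, and the effect of leaving such nuclei out was not tested. By the sample numbers, the 16 samples came from 8 mice, each of which gave 1 isolated and 1 cultured sample. The 8 Liver samples of the series were used only for reference. All mice were wild type (genotype WT), male by the study's methods and between 10 and 12 weeks of age, and no sample was given a treatment other than isolation or culture. The strain is C57BL6J in the labels and C57BL/6NTac in the study's methods. Isolated cells were never plated. Cultured cells were plated on collagen in a single layer, their medium held dexamethasone, insulin and serum, and they were detached with trypsin before freezing, so that culture, attachment, these hormones, trypsin and the passage of 24 hours cannot be told apart. Polyadenylated RNA of single nuclei was counted as unique molecular identifiers (UMIs), each standing for 1 captured RNA molecule. Nuclear RNA holds many unspliced transcripts and lacks most of the cytoplasmic mRNA, which limits what these levels say about the whole cell.

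Hepatocytes are the main epithelial cells of the liver. They secrete most plasma proteins, keep blood glucose up between meals, clear ammonia through the urea cycle, make bile acids and lipoproteins, and oxidise drugs with cytochrome P450 enzymes. These tasks depend on a network of liver transcription factors and are divided along the lobule between the portal and the central vein. Hepatocytes taken out of the liver and spread on a plate are known to lose part of this program, a process called dedifferentiation.

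UMIs of the member nuclei were summed per sample and fitted with edgeR. Levels are given as CPM, UMIs per 1e6 UMIs of the sample on the scale of trimmed mean normalization (TMM), and are not corrected for gene length, so they are compared between samples and not between genes. Fold changes are log2 values, cultured over isolated, given with an approximate standard error (SE). This SE is the size of the fold change divided by the square root of edgeR's quasi-likelihood F statistic, not a separate estimate. A gene is said to rise or fall where its adjusted p was under 0.05. Among the 25354 genes tested, 13084 (51.6%) passed, of which 8310 (32.8% of all tested) rose and 4774 (18.8%) fell in culture. This split depended on the scaling and the filter: DESeq2 called 6869 higher and 5601 lower, RLE size factors gave 7142 and 5666, and edgeR's stricter filterByExpr gave 5948 and 5382. Beside single genes, the number of other settings in which a call was lost is given where the call was not held by every setting other than the restriction to spliced or to unspliced UMIs. In 4898 genes (19.3%) all cultured samples lay above all isolated samples, and in 2718 (10.7%) all lay below. With about every other gene called, the counts within a gene group are given to be read against these shares. Among the 7382 genes with at least 20 CPM in either type, 3098 (42.0%) rose and 2683 (36.3%) fell. The median log2 fold change of all tested genes was 0.23, and it ranged from 0.02 to 0.35 when the scaling, the filter on low counts or the covariate was changed, so small changes near this value carry no direction of their own. The leading dimension of a multidimensional scaling held 78.2% of the variance and separated the sample types.

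The markers of hepatocytes were checked first. The summed level of 10 hepatocyte markers lay between 16811 and 22159 CPM (median 19512) in isolated and between 2401 and 6086 CPM (median 3609) in cultured samples. All 10 fell, and all 10 were detected in both types. Lists of markers of other cells gave lower sums. The 6 cholangiocyte markers summed to medians of 174 CPM in isolated and 134 CPM in cultured samples, most of it from Pkhd1 (means of 159 and 109 CPM), and the 4 mesothelial and 2 tested erythroid markers to at most 4.27 CPM in any sample. The 11 endothelial markers summed to medians of 55.7 CPM in isolated and 64.0 CPM in cultured samples, the 8 Kupffer cell markers to 18.2 and 11.4 CPM, and the 5 tested leukocyte markers to 11.9 and 10.3 CPM. Among the endothelial markers 2 rose and 4 fell, and the 2 that rose were those with at least 20 CPM in either type (median log2 fold change 1.46). The 8 stellate cell markers summed to between 28.6 and 68.8 CPM (median 54.0) in isolated and between 77.4 and 584 CPM (median 154) in cultured samples. Of these, 2 rose and 6 were not called, with a list median of -0.09, and Reln gave most of the higher sum: it lay from 14.4 to 48.5 CPM (median 22.7) in the isolated samples and from 31.9 to 550.4 CPM (median 123) in the cultured samples. No marker of these lists was without a count over a whole sample type. Their part in the results was not tested.

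Depth and composition differed between samples. The summed UMIs per sample lay between 1775969 and 17196713 for isolated and between 9539460 and 20243064 for cultured samples, over 607 to 2537 and 1609 to 2148 nuclei. Nuclei of 4 samples were loaded together in each of 6 pools, and 4 pools held both sample types. Mouse 6 and mouse 7 gave the isolated samples whose pools held no cultured sample. The isolated samples of mice 3, 5 and 6 stood apart from the other 5: the authors' clustering put at least 97.0% of the nuclei of each in cluster 2 or 21, and most nuclei of the other 5 in clusters 4, 7 and 10. Without those 3 mice, 11212 of 24222 genes were called. Within the 4 pools that held both sample types, with the pool as covariate, 13071 of 25130 genes were called, 7207 higher and 5864 lower. The annotation names the isolated sample of mouse 2 CD2, which was read as CS2. Between pools, 76 cell barcodes were shared by member nuclei.

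More UMIs were counted per cultured member nucleus. The 1450 Primary Hepatocytes nuclei of cultured cluster 8 were not members, while no cluster was left out among nuclei annotated as Isolated Hepatocytes. The part of this choice in the values per nucleus was not tested. The median number of UMIs per nucleus lay between 1858 and 5638 (median 3396) in isolated samples and between 4697 and 8909 (median 6193) in cultured samples. It was higher in culture in 7 of 8 mice, by 2730 ± 2216 (mean and SD of the paired differences; two-sided exact paired permutation test, p = 0.0234, adjusted over 4 tests p = 0.0417). With means in place of medians the same exact permutation test gave p = 0.0625. The number of genes detected per nucleus rose in 8 of 8 mice, from a median of 1645 to 2801 (exact permutation p = 0.0078, the smallest that 8 pairs allow, adjusted p = 0.0313). When every nucleus was thinned to 1000 UMIs, the medians were 677 and 738.5 genes, again higher in 8 of 8 mice (331 isolated and 58 cultured nuclei with fewer UMIs were left out). The spliced share of UMIs per nucleus had medians of 29.2% in isolated and 27.0% in cultured samples, a difference within the spread of the paired differences (exact permutation p = 0.297). The mitochondrial share was small in both, with medians of 0.130% and 0.239%, and was higher in culture in 6 of 8 mice (exact permutation p = 0.0313, adjusted p = 0.0417), a call that was lost without mouse 2, 3, 4, 5, 6 or 8 (exact permutation p = 0.0625 in each case).

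The 15 genes that fell furthest, among those with at least 50 CPM in one type and no overlap between the types, included several metabolic enzymes. Pck1, which makes phosphoenolpyruvate for gluconeogenesis, lay from 2989 to 4644 CPM (median 3853) in the isolated samples and from 15.6 to 36.9 CPM (median 31.9) in the cultured samples. All isolated samples lay far above all cultured ones (log2 fold change -7.17 ± 0.22 (SE), adjusted p = 6.99e-15). G6pc, the subunit of glucose-6-phosphatase that releases free glucose, lay from 2671 to 4520.1 CPM (median 3301) in the isolated samples and from 27.9 to 66.7 CPM (median 48.6) in the cultured samples. It fell in every mouse (log2 fold change -6.24 ± 0.20 (SE), adjusted p = 9.01e-15). Cyp7a1, the rate-limiting enzyme of bile acid synthesis, fell from a median of 99.1 to 1.05 CPM, Thrsp, a lipogenic regulator, from 1390.2 to 16.7 CPM, and Gys2, the liver glycogen synthase, from 1004 to 13.1 CPM. The sulfotransferase Sult2a8 (-6.58 ± 0.29), the hydroxysteroid dehydrogenase Akr1c6 (-6.36 ± 0.30), the organic anion transporter Slco1b2 (-6.23 ± 0.25) and the monoglyceride lipase Mgll (-6.22 ± 0.16) were among the 15. So were the inflammasome gene Nlrp6 (-6.75 ± 0.30), the AP-1 gene Fosb (-6.40 ± 0.32), the major urinary protein gene Mup10 (-7.15 ± 0.24), whose family members are so alike that reads can be split between them, and the unannotated transcripts C730036E19Rik (-6.59 ± 0.23) and Gm43189 (-6.18 ± 0.24). Pooled counts of endothelial and hepatocyte nuclei were compared as CPM without TMM scaling. For all 15, the pooled CPM in the 1733 cultured endothelial nuclei was at or above that in cultured hepatocytes. Endothelial nuclei of isolated samples also held UMIs of these genes, among them Fosb (423 CPM, against 212 CPM in isolated hepatocytes) and Mgll (438 and 460.1 CPM). Pck1 stood at 92.1 CPM in cultured endothelial and 31.0 CPM in cultured hepatocyte nuclei on the unscaled pooled counts.

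The 15 genes that rose furthest were chosen by the same criteria. Anxa2, an annexin that binds membranes and the actin cortex, lay from 0.965 to 8.50 CPM (median 4.50) in the isolated samples and from 132 to 202 CPM (median 161) in the cultured samples. The groups were far apart (log2 fold change 5.23 ± 0.23 (SE), adjusted p = 2.59e-13). Pkm, the pyruvate kinase of most proliferating tissues that adult hepatocytes hardly express, lay from 1.52 to 16.9 CPM (median 8.55) in the isolated samples and from 189 to 311 CPM (median 253) in the cultured samples, and it rose in 8 of 8 mice (log2 fold change 5.04 ± 0.26 (SE), adjusted p = 2.58e-12). Pfkp, the platelet form of phosphofructokinase, rose from a median of 4.0 to 114 CPM, Ndrg1, a gene known to respond to hypoxia and stress, from 13.4 to 429.7 CPM, and Cdkn1a, the cell cycle inhibitor p21, from 3.59 to 94.9 CPM. Flna, an actin cross-linker (4.97 ± 0.20), Sprr1a, a small proline-rich protein of injured epithelia (4.89 ± 0.27), Fosl1, an AP-1 subunit (5.05 ± 0.32), Creb5, a leucine zipper factor (5.11 ± 0.25), and Anxa3 (4.65 ± 0.24) also rose, as did Cox4i2 (5.29 ± 0.31), an isoform of a cytochrome oxidase subunit, Thoc6 (4.86 ± 0.25), of the complex that couples transcription to mRNA export, and the transcripts Gm49774 (4.85 ± 0.30) and AC122252.2 (4.79 ± 0.33). Gstp2, a glutathione transferase, led the list (log2 fold change 5.42 ± 0.35 (SE), adjusted p = 6.27e-11), with a near-identical neighbour, Gstp1, that moved the other way (-1.57 ± 0.18), so reads of this pair may be split between them.

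**Figure D1:**
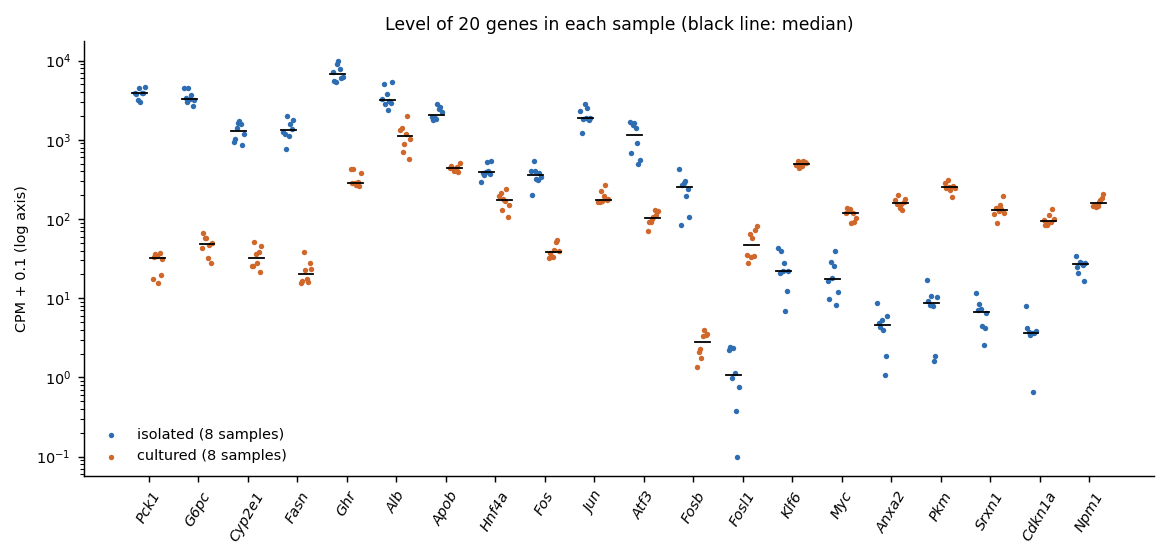
Level of 20 genes in each of the 8 isolated (blue) and 8 cultured (orange) samples, as CPM + 0.1 on a log axis, with black lines at the medians. Pck1, G6pc, Cyp2e1 and Fasn lie far lower in every cultured sample, Fosl1, Klf6, Anxa2, Pkm and Cdkn1a far higher, and the levels of Alb differ less.

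The isolated levels of these 15 genes differed between samples. In 12 of the 15 genes both isolated samples from pools without cultured cells lay below all 6 isolated samples that shared a pool with cultured cells, and RNA in empty droplets was lower in those pools for 14 of the 15. The median over the 15 genes of the fold between the means was 119 against the former samples and 26.1 against the latter. Anxa2 stood at 0.965 and 1.75 CPM in the isolated samples of mice 6 and 7 and at 3.84 to 8.50 CPM in the other 6, against at least 132 CPM in every cultured sample. Both samples also came from other mice, and that of mouse 7 had the lowest total of UMIs, so pool, mouse and, for mouse 7, depth cannot be told apart.

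**Figure D2:**
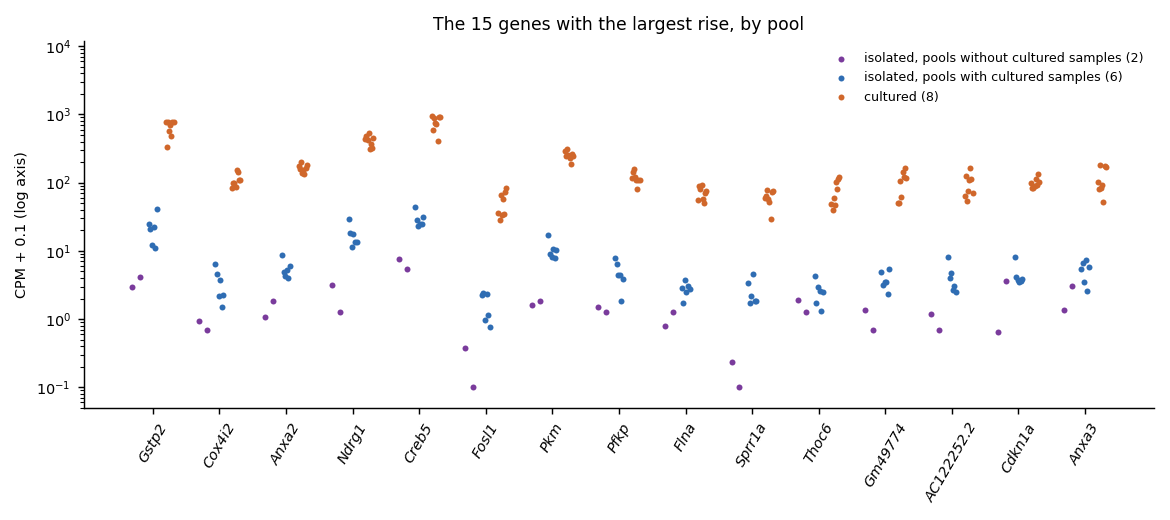
The 15 genes with the largest rise, as CPM + 0.1 on a log axis: 2 isolated samples from pools without cultured samples (purple), 6 isolated samples from pools with them (blue) and 8 cultured samples (orange). The purple points lie below all blue points in 12 of the 15 genes, and all orange points lie above both.

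Promoter sequence is shown for 2 of the 15 risers, Anxa2 and Sprr1a, and for Ankrd1 and Ajuba of the YAP and TEAD list, chosen because they held the letters of a motif. The motifs are those bound by AP-1, the dimer of Fos and Jun proteins, and by TEAD factors, the DNA-binding partners of YAP. The window was the 250 bases before the RefSeq gene start (GRCm38.p6), searched on both strands, and 9 of the 15 risers and 11 of the 15 fallers had an entry. TGANTCA, the core of an AP-1 site, was present in 4 of the 9 risers, 1 of the 11 fallers and 6.75% of 32851 promoters. In the YAP and TEAD list it was present in 1 of 16 genes. GGAATG, the core of a TEAD site, was present in 10 of the 16 genes of the YAP and TEAD list, 1 of the 9 risers, 2 of the 11 fallers and 12.6% of all promoters. A gene of a list was counted if any of its promoter entries held the letters. The share of all was counted over single entries, so a gene with several entries had more chances to match. The end of one motif can overlap the start of the other. A match describes the letters and is not a measured binding site. Below, capitals mark the matches, on the printed or the opposite strand. The Anxa2 window is chr9:69453433-69453682 (plus strand) and that of Sprr1a chr3:92485882-92486131 (minus strand), both with AP-1 letters; those of Ankrd1, chr19:36119845-36120094 (minus strand), and Ajuba, chr14:54577662-54577911 (minus strand), hold TEAD letters.
Anxa2: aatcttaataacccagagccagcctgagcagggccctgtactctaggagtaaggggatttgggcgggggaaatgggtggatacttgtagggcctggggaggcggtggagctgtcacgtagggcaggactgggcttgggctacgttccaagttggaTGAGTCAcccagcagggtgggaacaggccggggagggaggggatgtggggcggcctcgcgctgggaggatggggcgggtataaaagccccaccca
Sprr1a: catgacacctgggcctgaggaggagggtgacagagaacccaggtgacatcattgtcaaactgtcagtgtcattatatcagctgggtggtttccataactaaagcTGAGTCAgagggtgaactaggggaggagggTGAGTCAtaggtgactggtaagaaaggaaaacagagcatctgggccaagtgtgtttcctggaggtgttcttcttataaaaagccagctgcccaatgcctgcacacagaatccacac
Ankrd1: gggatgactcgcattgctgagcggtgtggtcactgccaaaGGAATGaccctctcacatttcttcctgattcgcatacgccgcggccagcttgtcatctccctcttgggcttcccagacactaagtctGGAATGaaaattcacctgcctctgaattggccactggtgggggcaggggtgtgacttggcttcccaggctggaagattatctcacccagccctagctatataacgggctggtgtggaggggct
Ajuba: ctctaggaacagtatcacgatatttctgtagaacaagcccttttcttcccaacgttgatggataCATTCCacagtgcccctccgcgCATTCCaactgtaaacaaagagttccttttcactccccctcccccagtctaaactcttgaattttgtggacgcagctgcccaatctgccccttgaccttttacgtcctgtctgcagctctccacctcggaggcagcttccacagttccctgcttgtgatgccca
The AP-1 letters began 95 bases before the start of Anxa2 and 146 and 116 bases before that of Sprr1a. The TEAD letters began 210 and 123 bases before the start of Ankrd1 and 186 and 164 bases before that of Ajuba.

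Immediate early genes, which cells switch on within minutes of a disturbance, were mostly high in isolated cells and lower after culture: 7 of 29 tested members rose and 17 fell, with a median log2 fold change of -1.47 that was -2.25 within the pools that held both types. Fos, an AP-1 subunit, lay from 201 to 535 CPM (median 362) in the isolated samples and from 31.7 to 54.4 CPM (median 38.2) in the cultured samples, and the groups did not overlap (log2 fold change -3.15 ± 0.18 (SE), adjusted p = 9.68e-12). Jun, its partner, lay from 1225 to 2836 CPM (median 1883) in the isolated samples and from 163 to 269 CPM (median 176) in the cultured samples, and it fell in 8 of 8 mice (-3.38 ± 0.17). The stress factor Atf3 (-3.30 ± 0.26) and the zinc finger factor Egr1 (-1.36 ± 0.15) fell as well, and Gadd45g (-5.01 ± 0.32) and Klf10 (-4.98 ± 0.17) fell further. On a scale set across all 24 samples, hepatocyte nuclei of Liver samples had a median of 3.74 CPM of Fos, 65.8 of Jun, 7.59 of Atf3 and 28.5 of Egr1, so that cultured levels of these 4 genes lay between those of isolated cells and those of tissue. Other members moved the opposite way. Klf6, a zinc finger factor of injured tissue, lay from 6.75 to 43.6 CPM (median 21.8) in the isolated samples and from 435 to 537 CPM (median 496) in the cultured samples, without overlap (log2 fold change 4.50 ± 0.26 (SE), adjusted p = 1.69e-11). Myc rose from a median of 17.2 to 119 CPM, Fosl1 from 0.962 to 46.6 CPM and the apoptosis regulator Ier3 from 1.23 to 31.9 CPM. Dusp1, a phosphatase that ends kinase signals, did not pass the test (medians of 90.4 and 123 CPM, adjusted p = 0.0555).

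Chaperones and the unfolded protein response were mixed. Of the heat shock chaperones, 4 of 11 tested rose and 5 fell, and the list median of 0.44 turned negative with DESeq2, with the stricter filter, for unspliced UMIs, for cultured cluster 0 alone, without mouse 6 (-0.65) and without mice 3, 5 and 6 (-0.57). Dnajb1, a partner of Hsp70, fell (-2.54 ± 0.18), as did Hspa8 (-1.19 ± 0.14), while Hsp90aa1 (1.13 ± 0.16) and the small chaperone Hspb1 (1.85 ± 0.17) rose. Hsph1 rose (1.18 ± 0.36, call lost in 8 of 22 other settings, also without mouse 1, 3 or 4, at 0.27 to 1.13), from a median of 19.8 to 49.9 CPM, although the isolated sample of mouse 8 stood at 224 CPM and above all cultured samples. Of the unfolded protein response, 3 of 13 tested members rose and 7 fell. Herpud1, which acts in protein degradation at the endoplasmic reticulum (-2.97 ± 0.18), and the chaperone Hsp90b1 (-1.93 ± 0.14) fell, and the stress factor Ddit3 rose (1.10 ± 0.14), as did Asns, which makes asparagine (1.29 ± 0.21). Hspa5 did not pass the test (adjusted p = 0.372), and its isolated sample of mouse 8 stood at 1765 CPM, against at most 295 CPM in culture.

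Plasma protein genes fell in spliced and in unspliced RNA. Of this list, 1 of 28 tested members rose and 25 fell, with a median of -2.16, which was -1.81 for spliced and -4.03 for unspliced UMIs alone. Summed over the list, the cultured median was 0.368 of the isolated one for spliced and 0.316 for unspliced UMIs, so the gap between the list medians did not appear in the sums. Albumin, Alb, lay from 2389.7 to 5298 CPM (median 3162) in the isolated samples and from 579 to 1979 CPM (median 1112) in the cultured samples. All cultured samples lay below all isolated ones (log2 fold change -1.70 ± 0.20 (SE), adjusted p = 5.21e-07). Its spliced UMIs went from a median of 928 to 574 CPM and its unspliced UMIs from 1855 to 404 CPM. Transthyretin, Ttr, fell (-2.80 ± 0.20), with 257 and 76.9 CPM spliced and 486 and 24.4 CPM unspliced, and Apoa1, the main protein of high-density lipoprotein, fell (-2.56 ± 0.21), with 617 and 129 CPM spliced and 244 and 10.0 CPM unspliced. Apob, the scaffold of very low density lipoprotein, went from a median of 2084 to 441 CPM (-2.29 ± 0.15) with nearly equal changes in the spliced (-2.27) and unspliced (-2.53) parts. Plasminogen, Plg, fell furthest (-5.60 ± 0.22), followed by Hrg (-4.37 ± 0.16), and the fibrinogen genes Fgb (-3.38 ± 0.21) and Fgg (-3.71 ± 0.24) fell together. Ceruloplasmin, Cp, was the exception and rose from 414 to 2089 CPM (log2 fold change 1.94 ± 0.24 (SE), adjusted p = 7.00e-07). Among complement genes, 1 of 19 tested members rose and 18 fell, with a median of -2.11. C8a (-4.90 ± 0.16), C9 (-4.61 ± 0.23), C4bp (-4.66 ± 0.14) and C6 (-4.30 ± 0.21) fell steeply, and C3 fell less (-0.82 ± 0.27, call lost in 4 of 22 other settings, also without mouse 5, at -0.94 to -0.30). Masp1 rose (0.68 ± 0.15, call lost in 3 of 22 other settings, at 0.30 to 0.34), but its spliced UMIs alone gave -0.71.

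Acute phase genes, which the liver induces in inflammation, mostly went up: 10 of 16 tested members rose and 4 fell, with a median of 1.21 that was 1.36 for spliced and -0.40 for unspliced UMIs alone, and 0.51 within the pools that held both types. Lcn2, a siderophore-binding protein, lay from 0 to 52.1 CPM (median 15.9) in the isolated samples and from 107 to 288 CPM (median 192) in the cultured samples. The groups did not overlap (log2 fold change 3.79 ± 0.41 (SE), adjusted p = 1.15e-07). The serum amyloid genes Saa1 (2.14 ± 0.31) and Saa2 (2.73 ± 0.30, but -1.55 for unspliced UMIs alone), which share much of their sequence, and Saa3 (2.94 ± 0.35) rose, as did Orm2 (2.74 ± 0.20). For Saa1 the spliced UMIs rose from a median of 19.7 to 130 CPM. Its unspliced UMIs, which alone gave -2.78, were rare in both types (0.354 and 0.0683 CPM). Unspliced UMIs of Saa2 were rarer still (0.0590 and 0.0441 CPM). C-reactive protein, Crp (-2.54 ± 0.21), Itih3 (-2.44 ± 0.26) and haptoglobin, Hp (-0.95 ± 0.19), fell.

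**Figure D3:**
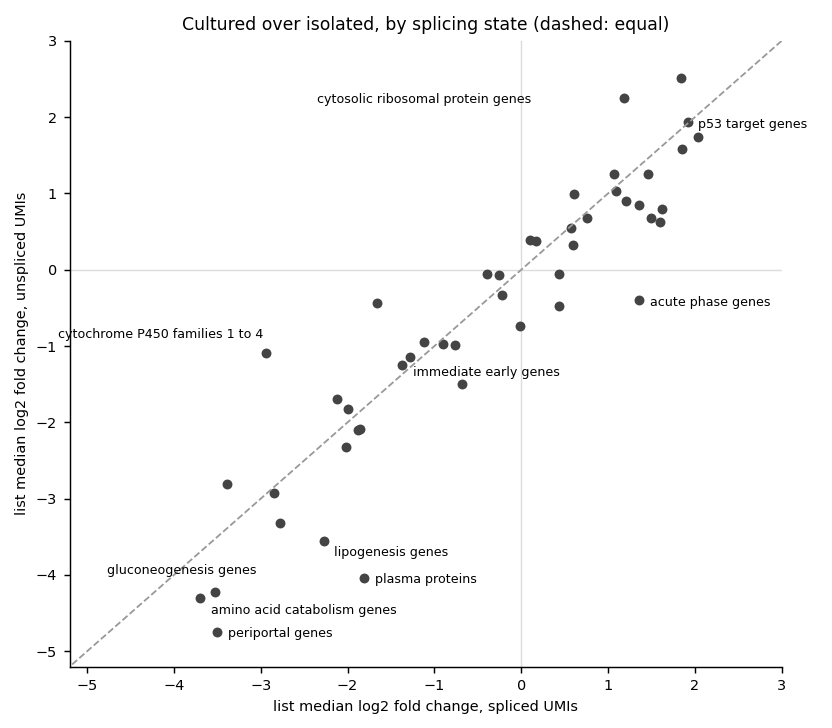
Median log2 fold change, cultured over isolated, of each gene list in spliced UMIs (x axis) and unspliced UMIs (y axis), with a dashed line where both are equal. Plasma proteins lie at -1.81 and -4.03, acute phase genes at 1.36 and -0.40, and ribosomal protein genes above the line.

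Genes of glucose release fell, and most genes of glycolysis rose. Of the gluconeogenesis list, 0 of 10 tested members rose and 9 fell, with a median of -3.94. In this list and in 5 more with 0 members called in 1 direction (hepatocyte transcription factors, pericentral, lipogenesis, cholesterol synthesis and ribosomal protein genes), edgeR gave 0 members in that direction at an unadjusted p under 0.05, and DESeq2 called 0. Beside Pck1 and G6pc, fructose bisphosphatase, Fbp1, lay from 587 to 1106 CPM (median 944) in the isolated samples and from 13.3 to 30.5 CPM (median 18.6) in the cultured samples, without overlap (log2 fold change -5.47 ± 0.17 (SE), adjusted p = 7.21e-15). Tat, the tyrosine aminotransferase (-5.24 ± 0.25), serine dehydratase, Sds (-5.78 ± 0.24), and the coactivator Ppargc1a (-2.43 ± 0.21) fell too. Of the glycolysis and glucose transport list, in which the symbol Aldoa stands for 2 gene identifiers that both rose, 15 of 24 tested members rose and 7 fell, with a median of 1.39. The lower Aldoa identifier had no UMIs in the isolated samples and at most 0.278 CPM in any cultured sample, so its rise rests on few UMIs. For glucose transport and pyruvate kinase the liver form fell and a widely expressed form rose. The transporter Slc2a2 went from a median of 205 to 8.90 CPM and Slc2a1 from 19 to 83.4 CPM. The liver pyruvate kinase Pklr fell (-2.96 ± 0.35) where Pkm rose. Aldolase A, Aldoa, went from a median of 15.3 to 66.6 CPM, and hexokinase 2, Hk2, rose (2.62 ± 0.27).

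Nitrogen metabolism genes fell. Of the urea cycle and glutamine list, 1 of 12 tested members rose and 11 fell, with a median of -3.14. Cps1, which takes up ammonia in the first step of the cycle, lay from 4772 to 9623 CPM (median 6489) in the isolated samples and from 401 to 2090.4 CPM (median 877) in the cultured samples. It fell in every mouse (log2 fold change -2.95 ± 0.24 (SE), adjusted p = 2.19e-09). Ornithine transcarbamylase, Otc (-5.56 ± 0.23), Asl (-4.99 ± 0.17), Ass1 (-4.33 ± 0.22) and arginase, Arg1 (-2.96 ± 0.29), fell with it. The liver glutaminase gene Gls2 went from a median of 256 to 25.2 CPM (-3.32 ± 0.15). Of amino acid catabolism genes, 3 of 30 tested members rose and 25 fell, with a median of -4.20. Haao (-5.99 ± 0.23) and Tdo2 (-4.71 ± 0.23) of tryptophan breakdown and Hal (-4.80 ± 0.26) and Uroc1 (-5.48 ± 0.20) of histidine breakdown are examples. The methionine enzyme Mat1a fell (-5.34 ± 0.19), whereas its counterpart outside the liver, Mat2a, rose by a small amount (0.58 ± 0.19, call lost in 10 of 22 other settings, also without mouse 6 or 7, at 0.03 to 0.42). Glycine decarboxylase, Gldc, did not pass (adjusted p = 0.226), and Ddc, an aromatic amino acid decarboxylase, rose (1.70 ± 0.30). Among amino acid transporters, 7 of 12 tested members rose and 4 fell. Slc7a1 (3.58 ± 0.16), Slc1a4 (3.74 ± 0.17), Slc3a2 (2.27 ± 0.15) and Slc7a5 (2.27 ± 0.20) rose, while the glutamine transporter of liver, Slc38a3, fell from a median of 1536 to 39.9 CPM, and Slc7a2 (-2.75 ± 0.22) and Slc38a4 (-2.87 ± 0.15) fell.

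Genes of drug and hormone oxidation mostly fell. Of the 74 tested genes of cytochrome P450 families 1 to 4, 8 rose and 42 fell, with a median of -1.12 (-2.94 for spliced UMIs alone and -2.07 after thinning every sum to the lowest total). Of the 36 with at least 20 CPM in either type, 1 rose and 33 fell, with a median of -3.85. Cyp2e1, which oxidises ethanol and paracetamol, lay from 856 to 1738 CPM (median 1299.6) in the isolated samples and from 21.5 to 50.8 CPM (median 31.8) in the cultured samples, without overlap (log2 fold change -5.27 ± 0.18 (SE), adjusted p = 1.46e-14). Cyp3a25 went from a median of 3517 to 44.3 CPM, Cyp2c29 from 709 to 15 CPM, Cyp1a2 from 109.5 to 4.70 CPM and Cyp3a11 from 344 to 25.3 CPM. Cyp2b10, the classical target of the receptor CAR, was the 1 riser at that level, from 2.98 to 35.6 CPM (log2 fold change 3.78 ± 0.32 (SE), adjusted p = 4.38e-09), although Nr1i3, the gene of CAR, fell (-5.92 ± 0.21). Of phase II genes, whose products attach polar groups, 13 of 64 tested members rose and 34 fell. Ugt3a2 (-5.10 ± 0.17), Sult5a1 (-4.69 ± 0.16) and Ugt2b1 (-3.53 ± 0.19) fell, and the glutathione transferases Gsta1 (4.52 ± 0.30) and Gstp3 (3.06 ± 0.19) rose.

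Of antioxidant genes under the factor Nrf2, 18 of 24 tested members rose and 6 fell, with a median of 1.5. Srxn1, a sulfiredoxin that repairs oxidised peroxiredoxins, lay from 2.48 to 11.6 CPM (median 6.61) in the isolated samples and from 89.7 to 196 CPM (median 131) in the cultured samples, without overlap (log2 fold change 4.36 ± 0.24 (SE), adjusted p = 6.05e-12). Gclc, the catalytic subunit that starts glutathione synthesis, lay from 107 to 591 CPM (median 387) in the isolated samples and from 1919.8 to 4176 CPM (median 2479.5) in the cultured samples, also without overlap (2.93 ± 0.30). Heme oxygenase, Hmox1 (2.91 ± 0.30), the cystine importer Slc7a11 (3.15 ± 0.21), glutathione reductase, Gsr (2.42 ± 0.16), Nqo1 (2.09 ± 0.22) and thioredoxin reductase, Txnrd1 (1.67 ± 0.17), rose. The peroxide-clearing enzymes catalase, Cat (-1.68 ± 0.15), and Gpx1 (-1.27 ± 0.16) fell, and so did Osgin1 (-1.89 ± 0.17).

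Bile acid genes fell from synthesis to transport. Of this list, 3 of 27 tested members rose and 23 fell, with a median of -2.75 (-3.39 for spliced UMIs alone). Beside Cyp7a1, Cyp8b1 (-3.90 ± 0.27) and Akr1d1 (-4.93 ± 0.20) of synthesis, Baat (-3.38 ± 0.18) of conjugation, the uptake carrier Slc10a1 (-2.74 ± 0.16) and the canalicular export pump Abcb11 (-2.96 ± 0.33) fell. The repressor Nr0b2 fell too (-6.11 ± 0.21). The efflux pump of the blood side Abcc4 rose from a median of 5.94 to 21.7 CPM (2.00 ± 0.22). Cyp7b1 fell (-3.74 ± 0.46), with isolated samples spread from 531 to 12889.8 CPM, and its difference was -2.84 without mice 3, 5 and 6.

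Genes of lipid synthesis and of lipid oxidation fell together. Of the lipogenesis list, 0 of 18 tested members rose and 16 fell, with a median of -3.15 (-2.28 for spliced UMIs alone). Fatty acid synthase, Fasn, lay from 776 to 2019 CPM (median 1326) in the isolated samples and from 15.3 to 37.9 CPM (median 20.1) in the cultured samples, without overlap (log2 fold change -6.01 ± 0.24 (SE), adjusted p = 1.17e-13). The desaturases Scd1 (-3.70 ± 0.22) and Fads2 (-4.61 ± 0.21), the elongases Elovl6 (-3.64 ± 0.29) and Elovl5 (-4.03 ± 0.29) and ATP citrate lyase, Acly (-3.49 ± 0.26), fell with it, and so did Srebf1, whose protein drives this set under insulin (-3.21 ± 0.16). Of cholesterol synthesis and uptake genes, 0 of 24 tested members rose and 23 fell, with a median of -2.08. The sterol sensor Insig1 went from a median of 596 to 32.5 CPM (-4.19 ± 0.19). Of fatty acid oxidation and fasting genes, 1 of 28 tested members rose and 25 fell, with a median of -1.77. Cpt1a, the entry point of fatty acids into mitochondria, lay from 531 to 917 CPM (median 709) in the isolated samples and from 22.2 to 58.5 CPM (median 46.5) in the cultured samples (-4.04 ± 0.19). Acsl1 (-5.25 ± 0.32), Acaa1b (-5.98 ± 0.24) and Bdh1 (-5.04 ± 0.16) fell. Fabp1, the liver fatty acid binding protein, fell to 38.4 from 249 CPM in spliced and to 1.58 from 207 CPM in unspliced UMIs. Of peroxisome genes, 4 of 31 tested members rose and 23 fell, among them Hao1 (-4.37 ± 0.27), Pxmp2 (-4.60 ± 0.20) and the transporter Abcd3 (-3.02 ± 0.16), while Agps (1.16 ± 0.15) and Gnpat (0.45 ± 0.11, call lost in 10 of 22 other settings, also without mouse 1, 4, 6 or 7, at 0.24 to 0.33), which make ether lipids, rose.

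**Figure D4:**
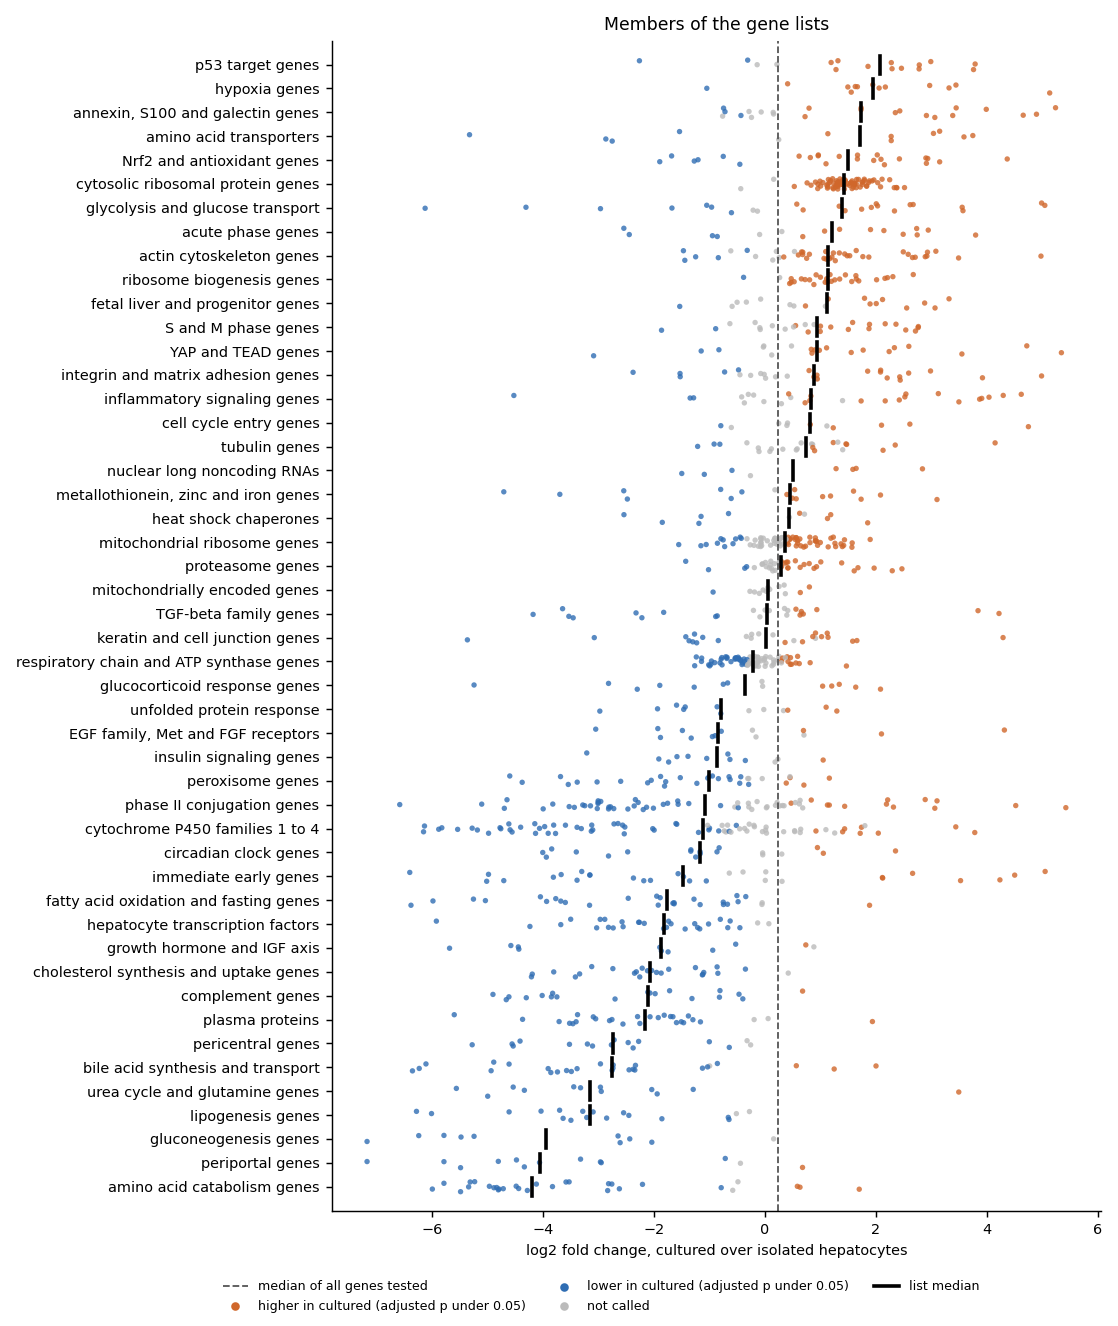
Log2 fold change, cultured over isolated, of each tested member (points) of 48 gene lists, ordered by list median (black bar), with members called higher in orange, called lower in blue and not called in grey, and a dashed line at the median of all genes, 0.23. The medians run from -4.20 for amino acid catabolism to 2.07 for p53 targets, and the order of lists close to each other changed with the setting.

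The regulators of these programs were lower too. Of 29 tested hepatocyte transcription factors, 27 fell and 0 rose, with a median of -1.83. Hnf4a, the central factor of hepatocyte identity, lay from 291 to 542 CPM (median 389) in the isolated samples and from 106 to 239 CPM (median 173) in the cultured samples. The groups did not overlap (log2 fold change -1.26 ± 0.16 (SE), adjusted p = 1.30e-06). Cebpa fell from a median of 67.8 to 7.88 CPM, and the receptors Ppara (-3.68 ± 0.24) and Rxra (-3.50 ± 0.22) and the secretory factor Creb3l3 (-4.23 ± 0.17) fell further. Zbtb20, which holds Afp silent in adult liver, fell little (-0.80 ± 0.19). Onecut1 fell (-3.03 ± 0.62), with isolated samples spread from 31.4 to 1918 CPM, and its difference was -1.96 without mice 3, 5 and 6. Of fetal liver and progenitor genes, 10 of 18 tested members rose and 1 fell. Most lay low: 4 had at least 20 CPM in either type, and all 4 rose. The ductal and progenitor factor Sox9 rose from a median of 4.09 to 21.6 CPM, the chromatin factors Hmga1 from 2.74 to 24.7 CPM and Hmga2 from 2.49 to 22.8 CPM, and the RNA-binding protein Igf2bp2 from 19 to 78.6 CPM. Afp, the albumin of the fetus, was the member that fell (-1.53 ± 0.26), from 2.60 to 0.835 CPM.

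Marker genes of both sides of the lobule fell. Of pericentral genes, 14 of 16 fell and 0 rose, with a median of -2.74. Of periportal genes, 1 of 13 tested members rose and 11 fell, with a median of -4.06 (-4.74 for unspliced UMIs alone). Glutamine synthetase, Glul, which is confined to the cells around the central vein, lay from 72.1 to 528 CPM (median 326) in the isolated samples and from 8.34 to 16.5 CPM (median 12.1) in the cultured samples (-4.53 ± 0.23). The Wnt targets Axin2 (-4.41 ± 0.18) and Lgr5 (-2.46 ± 0.23) and the glutamate transporter Slc1a2 (-3.11 ± 0.29) fell. On the portal side Cyp2f2 (-4.06 ± 0.18), Etnppl (-4.48 ± 0.42) and, less, Hsd17b13 (-0.72 ± 0.16) fell, and E-cadherin, Cdh1, rose (0.68 ± 0.15, call lost in 1 of 22 other settings, at 0.34).

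Clock genes changed in both directions, and isolated samples separated by mouse number. The time of day of sampling was not analysed here. Of this list, 3 of 19 tested members rose and 13 fell. The repressor Nr1d1 lay from 48.9 to 173 CPM (median 101) in the isolated samples and from 4.12 to 13.7 CPM (median 5.81) in the cultured samples, without overlap (-3.94 ± 0.28). The output factors Dbp (-4.0 ± 0.18) and Hlf (-3.84 ± 0.18), the period gene Per3 (-2.82 ± 0.27) and Bhlhe40 (-3.40 ± 0.15) fell. Arntl (1.05 ± 0.24, call lost in 4 of 22 other settings, at 0.16 to 0.73), Npas2 (2.35 ± 0.18) and Cry1 (0.94 ± 0.20, call lost in 2 of 22 other settings, at 0.35 to 0.47) rose. Clock itself did not pass (adjusted p = 0.876). In isolated cells Arntl lay between 52.9 and 93.8 CPM in mice 1, 3, 5 and 7 and between 11.4 and 16.8 CPM in mice 2, 4, 6 and 8. Per3 lay between 20.4 and 37.3 CPM in the odd and between 94.3 and 112 CPM in the even mice, and Clock between 147 and 265 against 94.5 and 123 CPM. Liver nuclei of the same mice, on the scale of all 24 samples, were split alike, with Arntl between 54.2 and 97.6 CPM in odd and between 9.02 and 17.7 CPM in even mice. In culture Clock (137 to 156 and 121 to 161 CPM) and Per3 (5.17 to 8.85 and 5.74 to 10.4 CPM) overlapped, while Arntl still lay higher in odd mice (72.9 to 83.3 against 43.1 to 70.1 CPM). Arntl was higher in culture in 3 of 4 odd and 4 of 4 even mice, and Clock in 0 of 4 odd and 3 of 4 even mice. Dbp, Nr1d1 and Per3 were lower in culture in all 8. The split was seen in the values and is given without a test.

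Genes of hormone response were followed because the medium held dexamethasone and insulin. Glucocorticoid response genes did not move as one: 5 of 14 tested members rose and 7 fell, with a median of -0.36 that was -0.97 within the pools that held both types. Fkbp5, a chaperone induced by the receptor, rose (1.63 ± 0.25), from 35.7 to 170 CPM in isolated samples to 160 to 546 CPM in culture. Zbtb16 (1.20 ± 0.28, call lost in 1 of 22 other settings, at 0.74) and Sgk1 (1.34 ± 0.26) rose, whereas Tsc22d3 (-1.27 ± 0.25), Klf9 (-2.30 ± 0.18), Igfbp1 (-1.89 ± 0.33) and Lpin1 (-2.82 ± 0.27) fell, as did Nr3c1, the gene of the receptor (-0.67 ± 0.14). Per1 and Pdk4 did not pass (adjusted p = 0.868 and 0.94). Of insulin signaling genes, 1 of 12 tested members rose and 9 fell. Irs2 (-1.91 ± 0.13) and Grb14 (-1.73 ± 0.13) fell and Akt1 rose (1.05 ± 0.13), while Foxo1 did not pass (adjusted p = 0.167). Genes of the growth hormone axis were mostly lower: 1 of 11 tested members rose and 9 fell, with a median of -1.87 that was -1.15 without mice 3, 5 and 6. The receptor Ghr lay from 5323 to 10030.1 CPM (median 6750.3) in the isolated samples and from 263 to 428 CPM (median 288) in the cultured samples, without overlap (log2 fold change -4.44 ± 0.21 (SE), adjusted p = 1.08e-12). Igfbp2 (-5.68 ± 0.40), Igfbp4 (-4.43 ± 0.17) and the prolactin receptor Prlr (-4.58 ± 0.37) fell, and the signal transducer Stat5a rose (0.74 ± 0.14). Isolated samples were spread from 55.4 to 1423 CPM in Prlr.

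Metal genes moved in opposite ways. Of the metallothionein, zinc and iron list, 10 of 18 tested members rose and 7 fell, and its median of 0.44 was -0.06 for unspliced UMIs alone. Mt2, a metallothionein that binds zinc, lay from 2.33 to 115 CPM (median 43.7) in the isolated samples and from 105 to 346 CPM (median 149) in the cultured samples. It was higher in culture in 7 of 8 mice, and the groups overlapped (log2 fold change 2.08 ± 0.44 (SE), adjusted p = 4.13e-04), and unspliced UMIs alone gave -0.085. Mt1 rose less (1.04 ± 0.37, adjusted p = 0.0238, call lost in 12 of 21 other settings, also without mouse 1, 4, 5, 6 or 7, at 0.15 to 0.99). Hepcidin, Hamp, the hormone that lowers iron export into blood, lay from 102 to 477 CPM (median 293) in the isolated samples and from 5.40 to 19.6 CPM (median 10.3) in the cultured samples (-4.70 ± 0.26). The transferrin receptor Tfr2 fell (-2.48 ± 0.15) and Tfrc rose slightly (0.49 ± 0.13, call lost in 7 of 22 other settings, also without mouse 1, 4, 6 or 7, at 0.01 to 0.32), and the iron exporter Slc40a1 did not pass (adjusted p = 0.361).

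Genes of the cell's structure were followed by group. Of actin cytoskeleton genes, 31 of 42 tested members rose and 5 fell, with a median of 1.13. The tropomyosins Tpm1 (2.49 ± 0.13) and Tpm4 (2.71 ± 0.14), the myosin heavy chain Myh9 (1.64 ± 0.13), the light chain Myl12b (3.08 ± 0.15) and the linker Pdlim7 (2.92 ± 0.15) rose. The actins themselves did the opposite: Actb lay from 549 to 895 CPM (median 745) in the isolated samples and from 380.2 to 439 CPM (median 401) in the cultured samples (-0.84 ± 0.14), and Actg1 went from a median of 546 to 205 CPM (-1.47 ± 0.14). In Liver nuclei the medians of these actins were 41.2 and 16.1 CPM on the scale of all 24 samples. Of tubulin genes, 8 of 24 tested members rose and 3 fell, with a median of 0.75 that turned negative with the stricter filter and after thinning. Tubb6 (2.35 ± 0.13) and Tubb4b (1.23 ± 0.12) rose and Tubb2a fell (-0.92 ± 0.16).

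Of integrin and matrix adhesion genes, 14 of 27 tested members rose and 5 fell. Integrin alpha 2, Itga2 (2.98 ± 0.23), which binds collagen, the coating of the plates, rose from a median of 3.15 to 23.2 CPM, and Itgav (1.85 ± 0.17), Itga6 (2.43 ± 0.15), Itga3 (2.20 ± 0.19) and Itgb1 (0.88 ± 0.12) rose. The urokinase receptor Plaur lay from 0.873 to 2.65 CPM (median 1.75) in the isolated samples and from 11.7 to 47.3 CPM (median 26.2) in the cultured samples (3.92 ± 0.23). Integrin alpha 1, Itga1, another collagen receptor, fell (-1.53 ± 0.18), as did fibronectin, Fn1 (-1.53 ± 0.19). Keratin and junction genes showed no common direction: 10 of 26 tested members rose and 9 fell, with a median of 0.02 that was negative under several other settings. The gap junction genes Gjb1 (-3.07 ± 0.16) and Gjb2 (-5.36 ± 0.19), through which hepatocytes exchange small molecules, fell, and the keratins Krt8 (-0.84 ± 0.15) and Krt18 (-1.27 ± 0.17) and N-cadherin, Cdh2 (-1.43 ± 0.15), fell less. Desmoplakin, Dsp, rose (1.58 ± 0.14).

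Annexin, S100 and galectin genes mostly rose: 14 of 23 tested members rose and 3 fell, with a median of 1.73 that was 0.76 with DESeq2, 1.05 after thinning and 2.51 for unspliced UMIs alone. Anxa5 went from a median of 17.5 to 134 CPM, S100a10, the partner of Anxa2, from 9.94 to 78.8 CPM, S100a11 from 0.963 to 22.7 CPM and Lgals3 from 0.717 to 9.38 CPM. Anxa6 (-0.72 ± 0.12, call lost in 1 of 22 other settings, at -0.12) and Anxa11 (-0.75 ± 0.13) fell. Of YAP and TEAD genes, 13 of 20 tested members rose and 3 fell. Ankrd1, whose TEAD letters are shown above, lay from 0 to 1.31 CPM (median 0.431) in the isolated samples and from 4.47 to 44.5 CPM (median 18.6) in the cultured samples, without overlap (log2 fold change 5.34 ± 0.26 (SE), adjusted p = 9.51e-13). Ccn2 rose (4.72 ± 0.29) and Ccn1 fell (-1.15 ± 0.13) although both are classical targets, and Ajuba (2.59 ± 0.22), Ptpn14 (3.55 ± 0.17) and the factor Tead1 (2.24 ± 0.14) rose. Yap1 did not pass (medians of 188 and 186 CPM, adjusted p = 0.916). Of the TGF-beta family, 7 of 24 tested members rose and 9 fell, and the median of 0.04 was negative under several other settings. The ligand Tgfb2 lay from 1.93 to 4.61 CPM (median 2.85) in the isolated samples and from 33.3 to 57.8 CPM (median 43.7) in the cultured samples (log2 fold change 3.84 ± 0.17 (SE), adjusted p = 2.61e-13). The inhibitory Smad6 (-3.65 ± 0.21) and Smad7 (-1.82 ± 0.21) and the target Id2 (-4.18 ± 0.23) fell.

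Cell cycle genes rose in part. Of genes of cycle entry, 5 of 11 tested members rose and 1 fell. Of the 3 with at least 20 CPM in either type, 2 rose and 0 fell. Cdk6 rose (1.23 ± 0.15) and cyclin D1, Ccnd1, fell (-0.80 ± 0.21, call lost in 1 of 22 other settings, at -0.67), from 3.89 to 2.56 CPM. Of S and M phase genes, 15 of 26 tested members rose and 2 fell. Most lay low: 2 had at least 20 CPM in either type, and both rose. The whole list summed to medians of 57.6 CPM in isolated and 142 CPM in cultured samples. The licensing factors Mcm6 (2.76 ± 0.14) and Mcm7 (1.87 ± 0.14) rose, Mki67 went from a median of 1.27 to 6.63 CPM, and Top2a and Cdk1 did not pass (adjusted p = 0.462 and 0.822). Of p53 targets, 12 of 16 tested members rose and 2 fell, with a median of 2.07 (1.36 with the stricter filter). Beside Cdkn1a, the receptor Eda2r (3.79 ± 0.23), Aen (2.99 ± 0.14), Ccng1 (2.29 ± 0.15), Zmat3 (2.46 ± 0.13) and Mdm2 (1.19 ± 0.14) rose, and Plk3 fell (-2.26 ± 0.17).

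Growth factor receptors were mostly lower: of EGF family, Met and FGF receptor genes, 3 of 14 tested members rose and 8 fell. Egfr lay from 2197 to 26836 CPM (median 3999) in the isolated samples and from 1361 to 2194 CPM (median 1785) in the cultured samples (log2 fold change -1.88 ± 0.39 (SE), adjusted p = 3.81e-04). The isolated samples of mice 3, 5 and 6 set the upper end, and without these mice the log2 fold change was -1.07. The feedback inhibitor Errfi1 (-1.93 ± 0.16), Erbb3 (-1.49 ± 0.19), Fgfr3 (-3.05 ± 0.22) and Met (-0.79 ± 0.16) fell, while the ligand Tgfa rose (2.10 ± 0.16).

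Nearly all ribosomal protein genes rose. Of cytosolic ribosomal protein genes, 79 of 81 rose and 0 fell, with a median of 1.42 against 0.23 for all genes, and of 2.25 for unspliced UMIs alone. Rps15a lay from 7.61 to 22.1 CPM (median 13.3) in the isolated samples and from 62.7 to 93.0 CPM (median 77.7) in the cultured samples, without overlap (log2 fold change 2.51 ± 0.14 (SE), adjusted p = 1.05e-11). Rpl3 (1.88 ± 0.13), Rplp0 (1.93 ± 0.13), Rps20 (2.37 ± 0.14) and Rps26 (2.33 ± 0.16) are further examples. Ribosome biogenesis genes followed: 27 of 29 tested members rose and 1 fell. Nucleophosmin, Npm1, lay from 16.3 to 33.9 CPM (median 26.7) in the isolated samples and from 143 to 205 CPM (median 159) in the cultured samples (2.67 ± 0.14), and nucleolin, Ncl (2.16 ± 0.14), and Nop56 (2.30 ± 0.16) rose. Ubtf, the factor of ribosomal DNA transcription, was the 1 that fell (-0.39 ± 0.13, call lost in 2 of 22 other settings, also without mouse 2, at -0.34 to -0.23).

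Mitochondrial groups moved less. Of mitochondrial ribosome genes, 37 of 78 tested members rose and 11 fell. Of respiratory chain and ATP synthase genes encoded in the nucleus, 12 of 78 tested members rose and 32 fell, with a median of -0.21. Sdhb (-1.27 ± 0.13), Ndufs7 (-1.24 ± 0.12), Atp5d (-1.14 ± 0.12) and Atp5a1 (-0.97 ± 0.12) fell, and Ndufa7 rose (0.81 ± 0.13). Of the 13 mitochondrially encoded genes, 2 rose and 1 fell, and their median of 0.05 changed sign with the scaling. mt-Co1 rose (0.80 ± 0.15, call lost in 1 of 21 other settings, at 0.42) and mt-Nd3 fell (-0.93 ± 0.17). Of proteasome genes, 20 of 39 tested members rose and 4 fell, with a median near that of all genes (0.30). Psmd8 (2.47 ± 0.19) and Psma2 (1.61 ± 0.12) rose, and Psmd9 fell (-1.43 ± 0.15).

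Of inflammatory signaling genes, 16 of 27 tested members rose and 3 fell. The oncostatin M receptor Osmr lay from 1.75 to 4.28 CPM (median 3.06) in the isolated samples and from 29.8 to 126 CPM (median 60.2) in the cultured samples, without overlap (log2 fold change 4.29 ± 0.22 (SE), adjusted p = 2.66e-12), while Lifr, another receptor that pairs with gp130, went from a median of 694 to 43.2 CPM (-4.52 ± 0.33). Tnfrsf12a (4.62 ± 0.25), the chemokine Ccl2 (3.90 ± 0.48) and Tnfaip3, which limits NF-kappaB (3.49 ± 0.25), rose, and Cxcl1 (-1.35 ± 0.32) and Irf1 (-1.29 ± 0.19) fell. Il6ra and Stat3 did not pass (adjusted p = 0.444 and 0.124). Of hypoxia genes, 12 of 13 tested members rose and 1 fell. The collagen prolyl hydroxylases P4ha1 (2.17 ± 0.22) and P4ha2 (3.44 ± 0.17), the oxygen sensors Egln1 (2.06 ± 0.14) and Egln3 (1.66 ± 0.20) and Hif1a (1.49 ± 0.13) rose. Vegfa, the angiogenic factor that hypoxia induces, was the 1 that fell and lay from 388 to 571 CPM (median 445) in the isolated samples and from 155 to 308 CPM (median 221) in the cultured samples (-1.05 ± 0.14).

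Nuclear long noncoding RNAs were followed for their many UMIs, which were not corrected for length. Malat1 lay from 41570.5 to 61694 CPM (median 49814) in the isolated samples and from 31615 to 48829.5 CPM (median 44984) in the cultured samples and did not pass the test (adjusted p = 0.32). Neat1 fell (-0.59 ± 0.21, call lost in 3 of 21 other settings, also without mouse 2 or 5, at -0.59 to -0.37), and the snoRNA hosts Snhg1 (2.84 ± 0.18) and Gas5 (1.58 ± 0.13) and the imprinted Kcnq1ot1 (1.64 ± 0.14) rose. The transcripts Gm42418 (-0.57 ± 0.22, call lost in 6 of 21 other settings, also without mouse 2, 5 or 8, at -0.59 to -0.40) and Gm26917 (adjusted p = 0.873) and the kinase gene Camk1d (-1.30 ± 0.22) gave many UMIs in both types.

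Differences between mice were larger before than after culture. Over the 3849 genes with at least 50 CPM on average, the median standard deviation of log2 CPM was 0.284 across the 8 isolated and 0.185 across the 8 cultured samples, and it was larger in isolated samples for 3036 genes (78.9%). Without mice 3, 5 and 6 the medians were 0.250 and 0.161. With every sample thinned to 1775969 UMIs, over the 2671 genes of at least 50 CPM in both types, the medians were 0.253 and 0.184, and 75.3% of genes had the larger value in isolated samples. Without mice 3, 5 and 6 that share was 68.3%. The thinned comparison was chosen after seeing the data. On the scale of all 24 samples the level of Egfr in isolated cells of mice 3, 5 and 6 lay between 20577 and 26668 CPM, and in the other 5 mice between 2286 and 4208 CPM. Liver nuclei of the same mice had 18118 to 24561 CPM against 1520 to 3706 CPM. After culture the ranges were 1268 to 1939 and 1242 to 1923 CPM, and mice no longer separated. Cyp7b1 lay between 5208 and 12809 CPM against 554 to 852 CPM in isolated cells and between 93.4 and 173 against 77.1 to 145 CPM in culture. Onecut1, Igf1, Socs2, Lifr and C3 also separated these mice without overlap in isolated and in Liver nuclei and overlapped in culture. Prlr, looked at in the same way, overlapped in isolated cells (162 to 1491 against 55.1 to 419 CPM). In Liver nuclei its ranges also overlapped (213 to 1664 against 69.3 to 560 CPM). These genes were chosen after their values were seen, so no test is given.

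**Figure D5:**
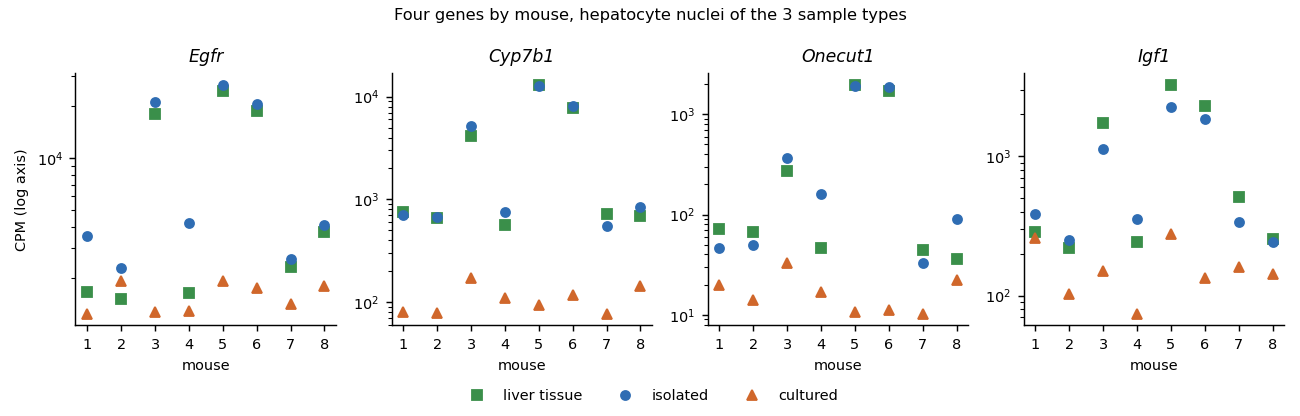
Level of Egfr, Cyp7b1, Onecut1 and Igf1 by mouse, in hepatocyte nuclei of Liver (squares), isolated (circles) and cultured (triangles) samples, as CPM on a log axis. Mice 3, 5 and 6 lie above the others in Liver and isolated samples, and the 8 cultured samples overlap.

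Within the cultured nuclei, the 4 clusters were present in every sample, with median shares of 41.0% (cluster 0), 39.2% (cluster 1), 10.8% (cluster 14) and 5.85% (cluster 17). Their levels are a description, since the clusters were made from these genes. Levels of clusters are CPM without TMM scaling, so they are not on the scale of the sample values above. Median CPM over the 8 cultured samples of Hnf4a was 194, 223, 117 and 180 in the order of cluster number, and that of Alb 1135, 1273, 1300 and 1866. Ankrd1 stood at 46.7 CPM in cluster 0 and at most 2.10 CPM in the other clusters. Gclc was highest in cluster 17, at 7440 CPM, which also held more Pck1 (89.7 CPM) and Nr1d1 (46.8 CPM) and less Anxa3 (9.93 CPM) than the other clusters. In all 4 clusters the median of Pck1 stayed far below the lowest isolated sample, 2989 CPM on the TMM scale.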

How the data were processed

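Nuclei of 24 samples were sequenced with a droplet 3' kit, 4 hashtagged samples to a pool. The authors pseudo-aligned reads with Salmon Alevin to spliced and unspliced transcripts of Ensembl GRCm38 (demultiplexing by bcl2fastq 2.19.0), kept singlets by hashtag, removed doublets with scDblFinder, and clustered and annotated nuclei with Seurat. The deposited values used here are UMI counts per gene and nucleus, in spliced, unspliced and ambiguous matrices, with the authors' annotation. No doublet caller was run again. The 1402 nuclei named CD2 were read as those of the isolated sample of mouse 2, the number that was otherwise missing.

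The 3 matrices were added and summed over member nuclei per sample, and genes with at least 10 counts over the 16 sums (25354) were fitted with edgeR 4.0.16 in R 4.3.3 (TMM, quasi-likelihood test, mouse and sample type in the design, Benjamini-Hochberg adjustment, threshold 0.05). The authors' own pseudo-bulk used DESeq2 with sample type alone. Samples were paired by number. The study's methods take suspension and plated cells from 1 liver, and that samples of 1 number came from 1 mouse was read from the numbering. Over 3849 genes the correlation of deviations within a pair lay between -0.12 and 0.15. Its median was 0.03, against 0.002 for samples of different numbers. The script was tested on simulated data. Values per nucleus were compared by two-sided exact paired permutation tests, adjusted over 4. With 8 pairs the smallest p is 0.0078. Each p-value is the share of all sign flips of the paired differences whose mean was at least as large in size. The differences mix mouse, preparation and pool, which the test does not separate.

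The members and gene lists were chosen with earlier results of these data known, so no list was tested as a set. Named genes were the 15 with the largest rise and fall among called genes with at least 50 CPM and no overlap. In each list they were the anchor genes, up to 4 members with the largest change at 20 CPM or more and up to 3 against the majority, and the 5 highest genes of each type were added. Some genes named by this rule are not reported here. Promoters and motifs came from RefSeq sequence of GRCm38.p6, with windows of 250 bases. Alternatives were no block, RLE size factors, DESeq2 1.42.0, other count filters and spliced or unspliced UMIs alone. Further ones were thinned sums, other choices of nuclei, pool as covariate in place of the mouse, and each mouse left out. The setting without mice 3, 5 and 6 was added after seeing the data. Python 3.11.15, numpy 2.4.6, pandas 2.3.3, scipy 1.17.1 and matplotlib 3.10.9 were used.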

Additional observations from a re-analysis of the deposited data

Results flagged for a closer look

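The level of every named gene, the 4 values per nucleus, the total UMIs and the number of nuclei were taken in each group of 8 samples, and these 626 groups of values were searched for a single sample far from the other 7 (gap to the nearest sample, as a share of the whole range, over the critical value of Dixon's test at 5% for 8 samples; for genes on the scale of log2(CPM + 1)). This gap was found in 27 groups (4.31%), and chance gives it in about 1 in 20. Values of genes are CPM, with the range of the other 7 samples of the same type in parentheses, and no explanation of these gaps was tested.

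The isolated sample of mouse 8 lay far above the others in 5 genes: Hspa5 at 1765 (109.9 to 363), Herpud1 at 651 (246 to 337), Hsp90b1 at 659 (249.7 to 388), Hsph1 at 224 (8.43 to 29.1) and P4ha1 at 146 (25.5 to 39.7). Hspa8 was low in the isolated sample of mouse 2, at 242 (353 to 475).

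In isolated cells of mouse 6, Cyp7a1 stood at 360.5 (56.3 to 118) and Fgfr3 at 104 (30.3 to 54.4), while Cdkn1a stood at 0.551 (3.34 to 7.91) and Tgfa at 29.8 (42.5 to 56.9). The isolated sample of mouse 7, which had the lowest total of UMIs, lay low in 6 genes. These were Klf10 at 141 (208 to 267), Saa1 at 1.75 (21 to 85.0), Slc1a4 at 1.16 (2.62 to 4.25), Psmd8 at 6.98 (16 to 29.5), Hif1a at 14 (22.7 to 29.2) and Snhg1 at 2.33 (6.68 to 10.4). In isolated nuclei of mouse 1 the median mitochondrial share of UMIs was 0.325% (0.104 to 0.168%).

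After culture the gaps fell on other genes. Cultured cells of mouse 6 were low in Sprr1a at 29.3 (52.0 to 77.8), Grb14 at 54.2 (101 to 168) and Zmat3 at 44.3 (70.1 to 85.6). Those of mouse 7 were low in Fgb at 159 (249 to 371) and Errfi1 at 1003 (1236 to 1442) and high in Srebf1 at 38 (29.5 to 32.5). Mouse 2 was low in Saa3 at 8.49 (31.1 to 57.9) and Hp at 117 (207 to 316), and mouse 4 in Cdh2 at 282 (326 to 369). Gm42418 was high in cultured cells of mouse 3, at 24487 (17580 to 20017).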

How the results depend on the processing

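With the mouse as a block 13084 genes were called, and with no replicate block 13831, of which 12968 were shared and 0 went the opposite way. Dropping this pairing ended the calls of Arntl (0.73), Hsph1 (0.27) and Mt1 (0.68) and gave calls for Dusp1 and Stat3. Across the remaining settings the calls lay between 10025 and 13563. After thinning every sum to the lowest total, genes called higher were 5356. Leaving out each mouse in turn gave 12154 to 12753 calls, 6684 to 8127 higher and 4516 to 5588 lower. The share of higher genes among the calls was 63.5% and lay at 55.8% with RLE size factors, 55.1% with DESeq2, 52.5% with filterByExpr and 53.4% after thinning. Over all genes, those called both times with opposite sign were 57 for spliced UMIs alone, 16 for unspliced UMIs alone and 16 for the largest cultured cluster alone, and 0 in each other setting run. Among the named genes, the direction of a called gene reversed for Masp1 in spliced UMIs alone (-0.71). In unspliced UMIs alone it reversed for Saa1 (-2.78), Saa2 (-1.55) and Mt2 (-0.085), and those of Saa1 and Saa2 were rare. The uncalled Per1 (0.66) and Yap1 (0.35) changed sign in spliced UMIs. Calls lost in spliced or unspliced UMIs alone, and otherwise held, were those of Afp, Gas5, Hsp90aa1, Krt8, Krt18, Ndufa7, Psmd9 and Tubb4b. The medians of 7 of 48 functional lists changed sign in 53 of 1055 comparisons with other settings. The difference in mean UMIs per nucleus was 2099 (exact permutation p = 0.0625), against 2730 for medians, and leaving out a mouse gave 2306 to 3212. For genes per nucleus that range was 1005 to 1253. The pooled spliced share was 1.02 percentage points higher in culture, against -1.46 for medians, and this reversal was within the spread of the paired differences (exact permutation p = 0.398). Without 1 mouse the difference of medians lay between -2.53 and -0.99, and that of the mitochondrial share between 0.0726 and 0.102 percentage points. The pooled mitochondrial share was higher by 0.135 percentage points, in 8 of 8 mice (exact permutation p = 0.0078). The causes were not tested. Every sample had over 200 member nuclei, so the planned exclusion of smaller samples was not run. Depth limits the precision of low genes: the isolated sample of mouse 7 had 1775969 UMIs in all, against 9539460 or more in each cultured sample.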
